A study of Mus musculus with 6 samples.

Results

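Lysosomes are acidic organelles in which proteins, lipids and glycans are degraded. Their membrane is lined with heavily glycosylated proteins such as LAMP1 and LAMP2, their lumen holds hydrolases such as the cathepsins, and many of their genes share promoter sites bound by the transcription factor TFEB. The genes described here are 9 lysosomal membrane and enzyme genes, chosen by symbol: the membrane glycoprotein genes Cd68, Lamp1 and Lamp2, the transmembrane protein genes Laptm5, Laptm4a and Laptm4b, the cathepsin genes Ctsb and Ctsd, and Tfeb. All 9 were found among the 23412 genes of the deposited table, and all 9 were among the 14276 genes with a mean of at least 5 normalized counts that entered the test.

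RNA-seq compared undifferentiated mouse embryonic stem cells (mESCs) of the lines R1 and HN, to ask which genes are dysregulated without huntingtin (Htt). R1 is the parental wild type line, and HN is Htt-/-, with the promoter and exon 1 of Htt deleted. Both are of strain 129Sv and were grown on gelatin without feeder cells, in serum medium with leukemia inhibitory factor, an inhibitor of VEGF and FGF receptors, and the MEK and GSK3 inhibitors PD184352 and CHIR99021. Each line gave 3 libraries, and the libraries of both lines with the same replicate number were collected on the same date. Each genotype was represented by 1 line, so genotype and line cannot be told apart.

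The libraries held from 1640391 to 3866717 reads assigned to genes. Htt stood at 230, 257 and 199 normalized counts in R1 and at 18.3, 58.1 and 54.2 in HN (log2 fold change -2.52, SE 0.37, limma adjusted p = 0.0141; adjusted p = 1.60e-11 with the collection date as a replicate block). Every HN library was below every R1 library. This is a count over the whole gene, so it shows lower Htt RNA and not the deletion itself. The Htt call without the block was lost without R1 replicate 1 (-2.52, adjusted p = 0.122), without replicate 1 of both lines (-1.99, adjusted p = 0.434), without replicate 2 of both lines (-2.72, adjusted p = 0.0729) and without the variance trend (-2.52, adjusted p = 0.325). The fits without replicate 1 of both lines and without the variance trend called 0 of all 14276 genes, so no gene kept a call in them. The 10 pluripotency markers summed to between 15665 and 24464 normalized counts per library, against 44.7 to 143 for 17 macrophage markers, 31.2 to 173 for 8 fibroblast markers and 44.7 to 221 for 9 primitive and visceral endoderm markers. In bulk RNA, fewer cells of a type and less RNA per cell cannot be told apart. Replicate 3 had the highest sum of the macrophage, fibroblast and endoderm markers in each line.

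Cd68 was higher in HN than in R1 mESCs by 3.06-fold, and it was the gene of the 9 that passed the test (adjusted p under 0.05) without a block for collection date. Laptm5 was 2.39-fold higher, and the cathepsin genes Ctsd and Ctsb were 1.33-fold and 1.30-fold higher. These 3 passed the test when the date was included as a replicate block. Laptm4a, Laptm4b, Lamp1, Lamp2 and Tfeb passed neither test, and no gene of the 9 was lower in HN by either test.

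Thus 1 of the 9 genes passed without the block, where 0.119% of all tested genes passed as higher and 0.126% as lower. With the block, 4 of the 9 passed as higher and 0 as lower, where 5.46% of all tested genes passed as higher and 4.02% as lower. A normalized count in HN above that of R1 in all 3 same-date pairs was seen for 6 of the 9 genes and for 20.3% of all tested genes, and a lower one in all 3 pairs for 0 of the 9 and for 21.1% of all tested genes. For 1 of the 9, Cd68, every HN library was above every R1 library, as for 5.23% of all tested genes, and for 0 of the 9 every HN library was below, as for 5.54% of all tested genes. The median log2 fold change was 0.23 over the 9 genes and -0.01 over all tested genes. These shares are a description, since the 9 genes were chosen with earlier results of these data known. Cd68 and Laptm5 stand in the study's own lists of increased genes from the same libraries. The lowest R1 mean of the 9 was 82.1 normalized counts, whereas genes with a mean from 5 entered the test. The block left each fold change as it was and narrowed its interval. For Cd68 the SD of the pair differences was 0.39, against within-line SDs of 0.19 in R1 and 0.22 in HN (log2 scale). Its narrower interval thus does not show that its libraries matched by date, since limma also pools variance over all tested genes.

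**Figure D1:**
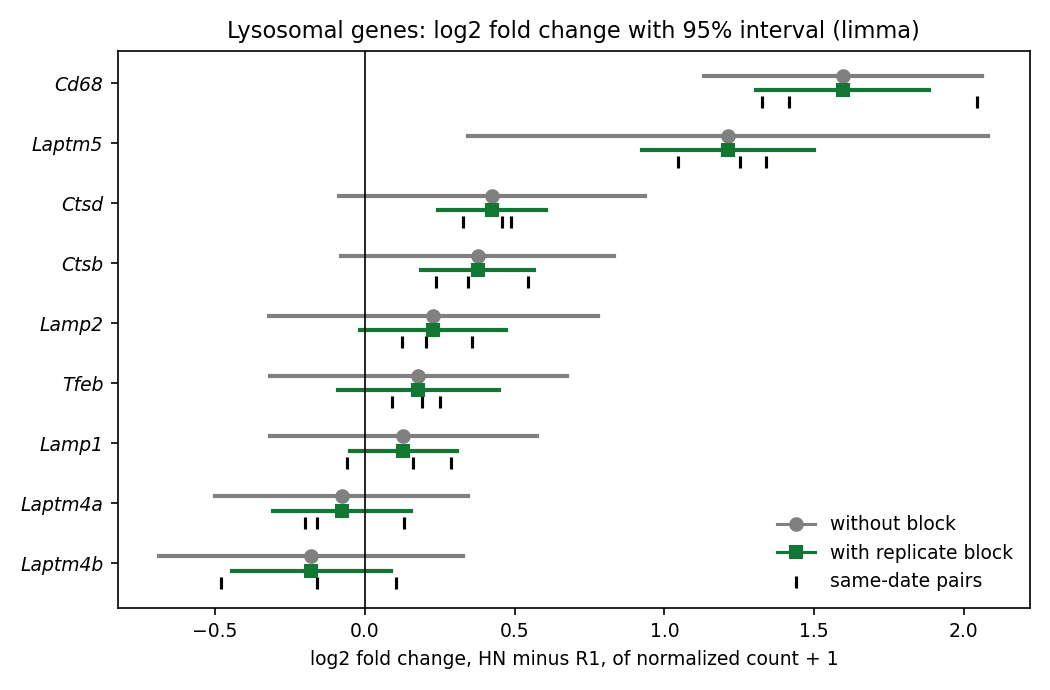
The horizontal axis gives the log2 fold change (HN minus R1) of the normalized count plus 1 for each of the 9 genes, with 95% limma intervals without the block (grey) and with the replicate block (green) and ticks for the 3 same-date pairs. The intervals of Cd68 and Laptm5 lie above 0 in both fits, those of Ctsd and Ctsb lie above 0 with the block, and the other 5 genes have intervals across 0 in both fits.

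Cd68 encodes macrosialin, a LAMP-family glycoprotein of late endosomes and lysosomes that is most abundant in macrophages. The gene lies on chromosome 11, 69664213 to 69666153 (minus strand, GRCm38 with GENCODE M21), and its exons cover 1257 bp. Cd68 stood at 70.3, 85.8 and 90.3 normalized counts in R1 and at 293, 217 and 243 in HN. Every HN library was above every R1 library, and the lowest HN value was replicate 2. The means were 82.1 ± 10.5 in R1 and 251 ± 38.8 in HN (SD, n = 3), on 66 to 306 reads per library. The log2 fold change was 1.60 (SE 0.21, 95% interval from 1.13 to 2.06, limma adjusted p = 0.00752), and with the replicate block the adjusted p was 2.81e-10.

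The same-date pairs of Cd68 differed by 2.05, 1.33 and 1.42 on the log2 scale, so the first pair was apart from the other two. Without the block the call was lost without R1 replicate 1 (1.49, adjusted p = 0.0783), without HN replicate 1 (1.48, adjusted p = 0.0912), without both replicates 1 (1.37, adjusted p = 0.771), without both replicates 2 (1.73, adjusted p = 0.0590) and without the variance trend (adjusted p = 0.185). The fits without both replicates 1 and without the variance trend called 0 of all 14276 genes, so no gene kept a call in them, and 143 and 356 genes were higher at an unadjusted p under 0.05. With the block it held without each date in turn (1.37 to 1.73). Cd68 stands in the study's own list of its most increased genes, and Laptm5 among the increased genes that it shares with SUZ12-deficient cells. Both lists were chosen on these libraries and are not independent evidence of direction.

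**Figure D2:**
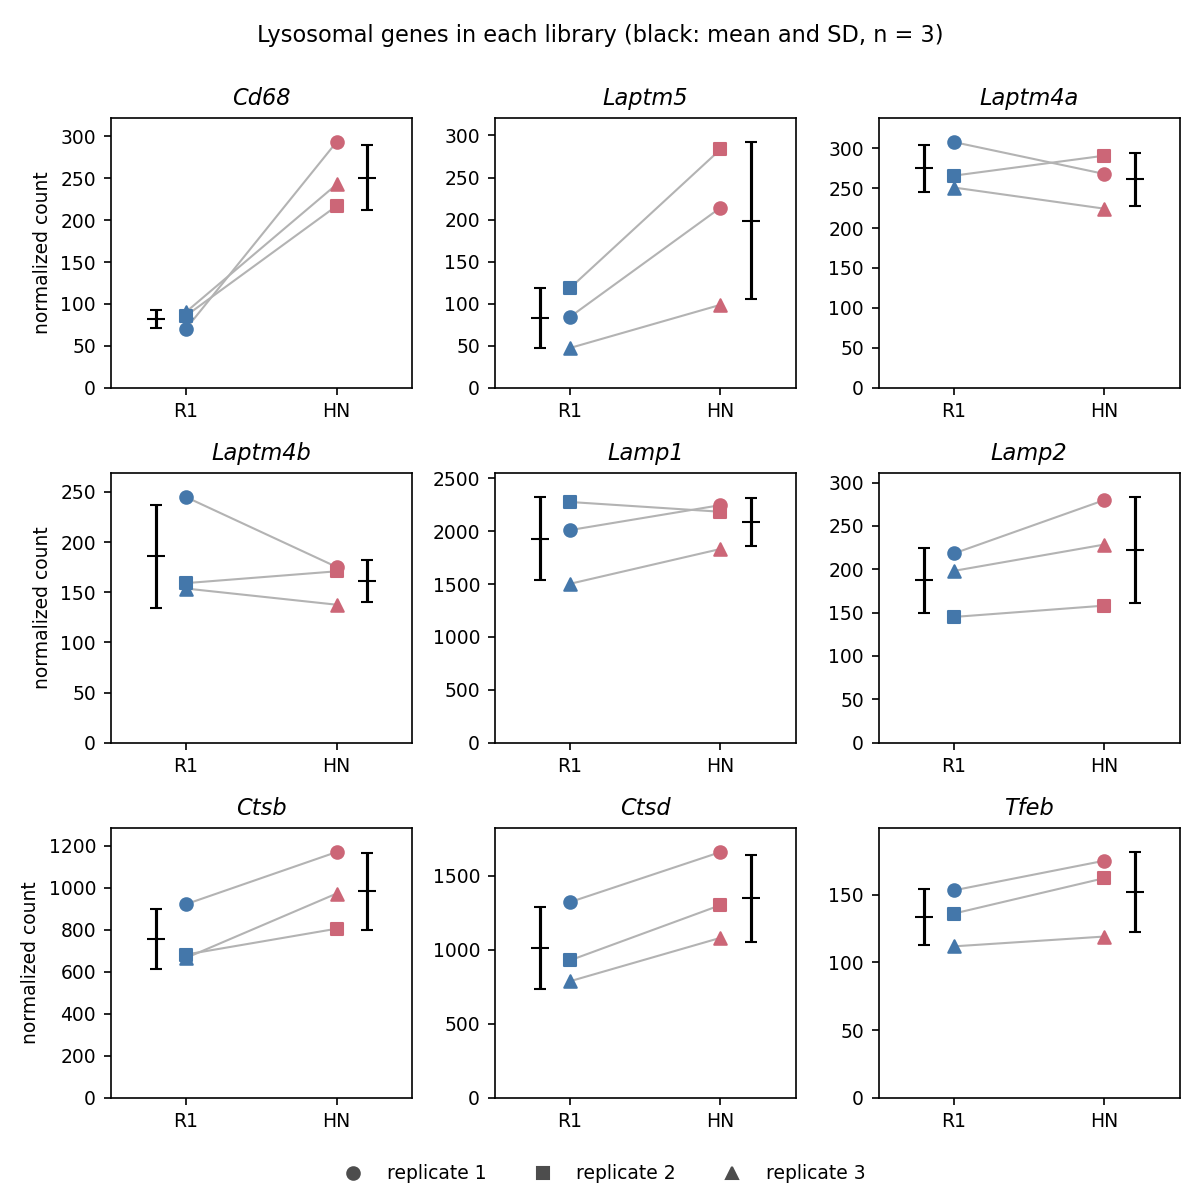
Each panel shows the normalized count of 1 gene in the 3 R1 libraries (blue) and the 3 HN libraries (red), with grey lines joining libraries of the same date and black marks for the mean and SD. Cd68 shows the lines apart in all libraries, while Laptm5, Ctsd and Ctsb show overlapping lines with an upward step in every pair.

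Lamp1 and Lamp2 encode the major glycoproteins of the lysosomal membrane, and the LAMP2 protein also takes part in autophagy. Lamp1 stood at 2011, 2277 and 1503 normalized counts in R1 and at 2247, 2185 and 1833 in HN. The lines overlapped, and replicate 3 was the lowest library of each line. The log2 fold change was 0.13 (SE 0.20, 95% interval from -0.32 to 0.58, limma adjusted p = 1.0; adjusted p = 0.437 with the block), and without R1 replicate 3 it was -0.04. The upper end of its interval lies below the lower end of that of Cd68.

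Lamp2 stood at 218, 145 and 198 normalized counts in R1 and at 280, 158 and 229 in HN. Replicate 2 was the lowest and replicate 1 the highest library of each line, and the lines overlapped. The pairs differed by 0.36, 0.12 and 0.20 on the log2 scale, and the log2 fold change was 0.23 (SE 0.25, 95% interval from -0.32 to 0.78, limma adjusted p = 1.0; adjusted p = 0.273 with the block). Lamp2 lies on chromosome X, 38401357 to 38456454 (minus strand), and Lamp1 on chromosome 8, 13159161 to 13175338 (plus strand).

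The ratio of Cd68 to Lamp1 normalized counts within a library was 0.0349, 0.0377 and 0.0601 in R1 and 0.131, 0.0993 and 0.132 in HN. The ratio was thus higher in all HN libraries than in all R1 libraries, by 1.47 on the log2 scale (exact two-sided permutation test, p = 0.1, the smallest that 3 against 3 libraries allow). This was 1 of 7 ratios between genes of the 9 that were computed, and a ratio shows unequal change, not which of its genes changed. The ratio of Lamp1 to Lamp2 differed by -0.10 on the log2 scale (exact permutation p = 0.7) and that of Ctsd to Ctsb by 0.05 (exact permutation p = 0.9).

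Laptm5 encodes a transmembrane protein of lysosomes known mainly from blood cells, where it promotes lysosomal degradation of antigen receptor subunits. It lies on chromosome 4, 130913125 to 130936141 (plus strand), with 3788 bp of exons. Laptm5 stood at 84.1, 118 and 47.2 normalized counts in R1 and at 214, 284 and 98.6 in HN, on 35 to 400 reads per library. Replicate 2 was the highest and replicate 3 the lowest library of each line, and HN replicate 3 was below R1 replicate 2, so the lines overlapped. The means were 83.2 ± 35.6 in R1 and 199 ± 93.4 in HN (SD, n = 3).

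Within dates, Laptm5 was higher in HN by 1.34, 1.25 and 1.05 on the log2 scale. The SD of these differences was 0.15, against within-line SDs of 0.66 in R1 and 0.79 in HN on the same scale. The log2 fold change of 1.21 had an SE of 0.40 without the block (95% interval from 0.34 to 2.08, limma adjusted p = 0.553) and 0.14 with it (0.93 to 1.50, adjusted p = 1.04e-07). Laptm5 passed in all 6 fits with the replicate block and in none of the fits without it.

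Laptm4a and Laptm4b, relatives of Laptm5 found in late endosomes and lysosomes of many cell types, passed neither test. Laptm4a stood at 308, 266 and 251 normalized counts in R1 and at 268, 291 and 224 in HN. Laptm4b stood at 245, 159 and 154 normalized counts in R1 and at 175, 171 and 138 in HN. The lines overlapped for both genes, and of the 3 pairs only replicate 2 was higher in HN. The log2 fold change was -0.08 for Laptm4a (SE 0.19, 95% interval from -0.50 to 0.35, limma adjusted p = 1.0) and -0.18 for Laptm4b (SE 0.23, 95% interval from -0.69 to 0.33, limma adjusted p = 1.0), and with the block the adjusted p was 0.773 and 0.480. Without R1 replicate 1 the values were 0.01 and 0.04, and without HN replicate 3 that of Laptm4a was 0.03.

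Set against its relatives within a library, Laptm5 was higher in HN by 1.29 on the log2 scale relative to Laptm4a and by 1.39 relative to Laptm4b. The lines overlapped in both ratios (exact two-sided permutation test over libraries, p = 0.2 for each). Within dates the differences were all above 0, at 1.54, 1.12 and 1.21 relative to Laptm4a and at 1.82, 1.15 and 1.21 relative to Laptm4b, and 3 pairs allow no two-sided exact p below 0.25. The ratio of Laptm4a to Laptm4b differed by 0.10 (exact permutation p = 0.7), and that of Cd68 to Laptm5 by 0.38 (exact permutation p = 0.6). Laptm4a lies on chromosome 12, 8921664 to 8938742 (plus strand) and Laptm4b on chromosome 15, 34238028 to 34284302 (plus strand).

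Ctsd and Ctsb encode cathepsin D, an aspartic protease, and cathepsin B, a cysteine protease, both among the most abundant proteases of the lysosomal lumen. Ctsd stood at 1322, 928 and 787 normalized counts in R1 and at 1661, 1302 and 1081 in HN. The libraries kept the order of replicates 1, 2 and 3 from highest to lowest in both lines, and R1 replicate 1 was above HN replicates 2 and 3. The means were 1013 ± 277 in R1 and 1348 ± 293 in HN (SD, n = 3), and the pairs differed by 0.33, 0.49 and 0.46 on the log2 scale. The log2 fold change was 0.42 (SE 0.23, 95% interval from -0.09 to 0.94, limma adjusted p = 1.0), and with the replicate block its interval ran from 0.25 to 0.60 (adjusted p = 0.00111).

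Ctsb stood at 922, 682 and 666 normalized counts in R1 and at 1170, 805 and 973 in HN. R1 replicate 1 was above HN replicate 2, so the lines overlapped, while all 3 pairs were higher in HN, by 0.34, 0.24 and 0.55 on the log2 scale. The log2 fold change was 0.38 (SE 0.21, 95% interval from -0.08 to 0.83, limma adjusted p = 1.0), and with the block the interval ran from 0.19 to 0.56 (adjusted p = 0.00607). With the block but without both replicates 2, neither cathepsin gene passed (adjusted p = 0.134 for Ctsd and 0.0673 for Ctsb).

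Part of the exon bases of both cathepsin genes overlap exons of other genes. How reads over such bases were counted is not given in the sources used here. Of the exon bases of Ctsd, on chromosome 7, 142375911 to 142388038 (minus strand), 34.4% lie in exons of the overlapping gene Gm49369 on the same strand, which has no row of its own here. Of the exon bases of Ctsb, on chromosome 14, 63122462 to 63145923 (plus strand), 12.8% lie opposite exons of Fdft1, and 9.31% of those of Lamp1 lie opposite exons of Grtp1. The library kit does not mark strand. Fdft1 differed by 0.18 and Grtp1 by -0.33 on the log2 scale, and neither passed with or without the block. Cd68, Laptm5, Laptm4a and Tfeb shared 0 of their 50-base transcript stretches with other genes.

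Tfeb encodes a basic helix-loop-helix factor that turns on lysosomal and autophagy genes and is held in the cytoplasm when mTORC1 phosphorylates it, so its mRNA level does not show its activity. Tfeb stood at 153, 136 and 112 normalized counts in R1 and at 175, 162 and 119 in HN. Replicate 1 was the highest and replicate 3 the lowest library of each line. HN replicate 3 was below R1 replicates 1 and 2. The pairs differed by 0.19, 0.25 and 0.09 on the log2 scale, and the log2 fold change was 0.18 (SE 0.23, 95% interval from -0.32 to 0.67, limma adjusted p = 1.0; adjusted p = 0.488 with the block). Tfeb lies on chromosome 17, 47737030 to 47792419 (plus strand).

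TFEB and its relatives bind the E-box CACGTG, best known in the longer form TCACGTG. The promoters of RefSeq (GRCm38.p6, from -250 to 50 bases around each start) were searched for both on either strand. TCACGTG holds CACGTG, and CACGTG reads the same on both strands. A promoter was listed for 7 of the 9 genes (9 promoters in all, 3 of them of Tfeb). CACGTG was found in 2 of these 9, those of Lamp1 and Ctsd, against 7.15% of all 32851 promoters, and TCACGTG in the same 2, against 3.77%. Stretches are shown for the genes that hold the E-box and for Cd68, the gene with the largest difference between the lines. Each is written 5′ to 3′ on the strand of its gene, with CACGTG in capitals. The stretch of Lamp1 runs from -66 to -5 relative to the start (chr8:13159095-13159156, plus strand), those of Ctsd lie at chr7:142388057-142388077 and chr7:142387910-142387935 (minus strand), the latter inside an exon of Ctsd in GENCODE M21, which places the gene's start further upstream, and that of Cd68 covers the 80 bases before its start (chr11:69666171-69666250, minus strand).
Lamp1: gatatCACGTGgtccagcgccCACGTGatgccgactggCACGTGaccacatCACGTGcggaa
Ctsd, distal: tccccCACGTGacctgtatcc
Ctsd, proximal: gcccgcgtctCACGTGacccgttgag
Cd68: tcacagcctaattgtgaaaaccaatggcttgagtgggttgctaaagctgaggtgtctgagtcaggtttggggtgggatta

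The Lamp1 stretch holds 4 copies of CACGTG and the 2 Ctsd stretches hold 1 each, while the whole searched promoters of Cd68 and Laptm5 hold 0 copies. A match of letters is not a bound site, and its absence from these windows says nothing of the factor. The log2 fold changes were 0.13 for Lamp1 and 0.42 for Ctsd, with copies, and 1.60 for Cd68, 1.21 for Laptm5, 0.23 for Lamp2, 0.18 for Tfeb and -0.08 for Laptm4a, with none.

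Levels were also taken per kb of exon, with all annotated exons of a gene merged, from 1257 bp for Cd68 to 9552 bp for Lamp2. The transcripts used in these cells can be shorter, so ranks depend on the annotation. Lamp2, last per kb, had a mean of 187 normalized counts in R1, above the 82.1 of Cd68. Per kb of exon, the level in R1 mESCs was highest for Lamp1 at 722 normalized counts, followed by Ctsd at 431, Laptm4a at 155, Ctsb at 125, Laptm4b at 95.9, Cd68 at 65.3, Tfeb at 23.6, Laptm5 at 22.0 and Lamp2 at 19.6. The R1 libraries of neighbours in this order overlapped for Lamp1 and Ctsd, for Laptm4a and Ctsb, for Ctsb and Laptm4b, for Tfeb and Laptm5 and for Laptm5 and Lamp2. They did not overlap for Ctsd and Laptm4a, Laptm4b and Cd68, and Cd68 and Tfeb. In HN mESCs, Cd68 reached 200 ± 30.9 normalized counts per kb (SD, n = 3), rank 3 of the 9 in place of rank 6, and Laptm5 reached 52.5 ± 24.7, rank 7 in place of rank 8. In HN the libraries of Cd68 overlapped those of Ctsb, at rank 4, and those of Laptm5 overlapped those of Tfeb, at rank 8, so these neighbours were not separated.

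The levels of the 9 genes also varied between dates. For 5 of the 9 genes (Laptm5, Laptm4b, Lamp2, Ctsd and Tfeb) the libraries of R1 and HN stood in the same order of dates, a share of 55.6% against 42.3% of all tested genes. Cd68 was not among them, with its highest value on date 3 in R1 and on date 1 in HN. As a description over the 6 libraries, which share their dates and lines, the log2 values of Ctsd and Tfeb had a Pearson r of 0.90, those of Laptm4a and Laptm4b 0.88, those of Ctsb and Ctsd 0.86 and those of Cd68 and Laptm5 0.67.

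The tested genes whose log2 values over the 6 libraries were most like those of Cd68 were Slc30a4 (Pearson r = 0.995), a zinc transporter gene, Tex264 (r = 0.988), which encodes a receptor for autophagy of the endoplasmic reticulum, and Hist1h4b (r = 0.986), a histone H4 gene. Their log2 fold changes were 0.76, 0.73 and 0.51, smaller than that of Cd68, and each passed with the block but not without it. Those most like Laptm5 were Gna13 (r = 0.999), Tnk2 (r = 0.995) and Kif1b (r = 0.994), with log2 fold changes of 0.31, 0.32 and 0.43. Of these, Gna13 and Kif1b passed with the block. The genes most like Cd68 and Laptm5 were picked as the highest r among 14276 tested genes, over only 6 libraries that share dates and lines. Such a search yields high values of r by itself, so no shared regulation is shown.

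Macrophages express Cd68 and Laptm5 strongly, so their markers were set beside both genes. The summed normalized count of the 17 macrophage markers was 85.2, 63.6 and 143 in R1 and 66.9, 44.7 and 101 in HN, which is no higher in HN in any pair. Of the 4 markers that could be tested, 0 passed with or without the block, 0 had a log2 fold change above 0, and the median was -0.37. Itgam had the lowest, -1.19 (limma adjusted p = 0.0942 with the block). Its means were 13.9 in R1 and 5.27 in HN, and every HN library was below every R1 library. Ptprc, the pan-leukocyte gene, stood at 3.19, 2.96 and 25.6 normalized counts in R1 and at 3.65, 2.13 and 11.9 in HN, and Lyz2 was at 0 reads in 4 of the 6 libraries. Other markers at low counts went either way by their means, such as Tyrobp (0.60 in R1 and 2.30 in HN) and Adgre1 (4.41 in R1 and 2.13 in HN). Of the 17 markers, 9 were at 0 reads in at least 1 library. Coro1a, which other cells also express, made up 36.1% of the sum. HN replicate 2 had the lowest macrophage sum of all libraries and, at 217 normalized counts, the lowest Cd68 value of the HN libraries. Laptm5, however, was at its highest in that library (284) and at its lowest HN value in replicate 3 (98.6). Replicate 3 had the highest macrophage sum of the HN libraries, and Cd68 was highest in HN replicate 1 (293). The fibroblast sum was 134, 74.0 and 173 in R1 and 71.8, 31.2 and 87.7 in HN, and Pdgfrb made up 43.1% of it. Of the 5 tested fibroblast markers, Pdgfrb and Thy1 were lower with the block, and 1, Col3a1, was above 0 (0.11). The part of these cell types in the results was not tested.

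**Figure D3:**
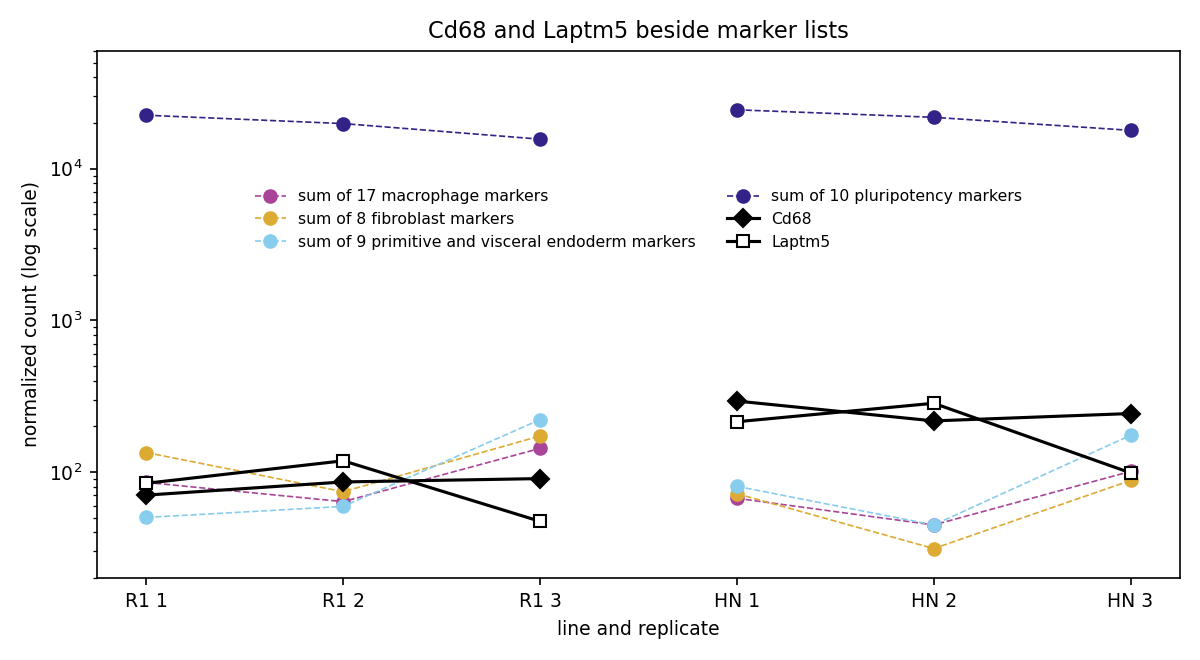
The vertical axis, on a log scale, gives normalized counts per library for Cd68, Laptm5 and the sums of 4 marker lists, with the 3 R1 libraries on the left and the 3 HN libraries on the right. Cd68 and Laptm5 stand higher in HN in each pair, the macrophage and fibroblast sums stand lower in each pair, and replicate 3 of each line has the highest endoderm, macrophage and fibroblast sums.

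To place the 9 genes among their pathway, 6 further lysosome lists were described, with 115 genes in all, of which 109 were tested. Without the block 0 of the 109 passed by limma and 0 by edgeR, DESeq2 called 1 (Ostm1), and at an unadjusted p under 0.05 limma gave 8 higher and 1 lower, against 3.15% and 2.75% of all tested genes. With the block 13 were higher and 2 lower, against 5.46% and 4.02% of all tested genes. The median log2 fold change was 0.09 over the 109 genes, and 58.7% were above 0, against 48.5% of all tested genes.

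The list of proteases had the highest median, 0.46 over 10 tested genes. With the block 5 of these rose and 0 fell, against 5.46% and 4.02% of all tested genes. The same shares apply to the lists below. The 5 were Ctsf (0.71), Ctsa (0.65), Ctsc (0.57), Dpp7 (0.55) and Tpp1 (0.55), all of which encode enzymes that cleave proteins or peptides in the lumen. Ctsa stood at 275, 275 and 125 normalized counts in R1 and at 538, 293 and 234 in HN. The lines overlapped for Ctsa, and each pair was higher in HN. Ctsc stood at 102, 120 and 87.6 in R1 and at 189, 150 and 125 in HN, with no overlap. Ctsh, a cathepsin gene at low levels, had the lowest log2 fold change of the list, -1.20, without passing (limma adjusted p = 1.0; adjusted p = 0.114 with the block). It stood at 17.0, 6.66 and 13.5 in R1 and at 6.08, 2.13 and 6.50 in HN, so that every HN library was below every R1 library. Ctsl, at -0.24, did not pass either.

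Among 22 tested genes of membrane proteins, with a median of 0.18, Ostm1 and Hgsnat rose with the block and 0 fell. Ostm1 encodes the partner of the chloride transporter CLC-7. It stood at 82.0, 60.7 and 86.3 normalized counts in R1 and at 214, 130 and 149 in HN. The lines did not overlap, and its log2 fold change of 1.08 (SE 0.25, limma adjusted p = 0.181; adjusted p = 2.66e-06 with the block) was the largest increase among the 109 genes. Among 34 tested genes of other hydrolases and activators, with a median of 0.13, Hexa (0.73), Manba (0.63) and Asah1 (0.44) rose with the block and 0 fell. They encode enzymes that degrade gangliosides, glycans and ceramide.

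The V-ATPase subunits, which acidify the lumen, had a median of 0.09 over 17 tested genes, with Atp6v0a2 (0.66) higher and Atp6v1b2 (-0.35) lower with the block. The relatives of Tfeb and their regulators had a median of -0.00 over 17 tested genes. Fnip2 (0.70), a partner of folliculin, was higher and Mitf (-0.79), which encodes a relative of TFEB, lower with the block. Mitf stood at 93.7, 57.7 and 94.3 normalized counts in R1 and at 52.3, 29.8 and 61.7 in HN, with overlapping lines. The genes of mannose 6-phosphate tagging and sorting had a median of 0.01 over 9 tested genes, with Gnptg (0.94) higher with the block. Of the genes of the 6 lists whose promoter was listed, 29 tested genes with CACGTG had a median log2 fold change of 0.11 and 60 without it had one of 0.06.

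**Figure D4:**
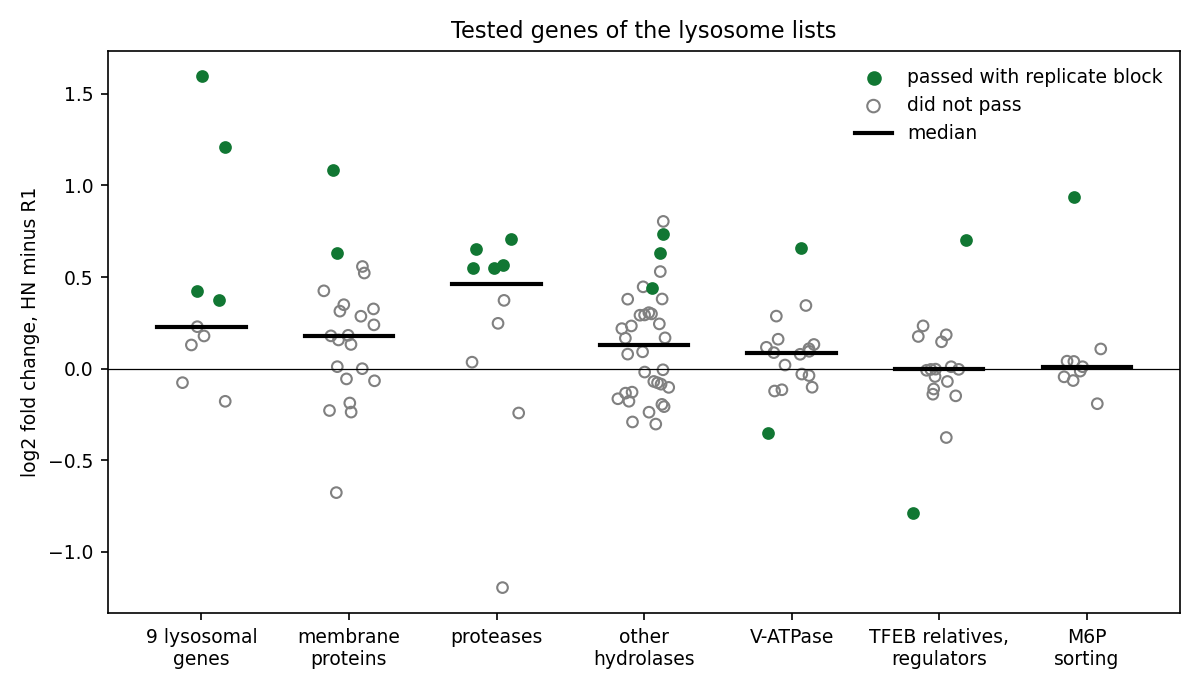
The vertical axis gives the log2 fold change (HN minus R1) of each tested gene for the 9 genes and the 6 further lysosome lists, with filled points for genes that passed with the replicate block and bars for the medians. The protease list has the highest median, 0.46, the regulators of TFEB and the sorting genes have medians near 0, and Cd68 and Laptm5 stand above all genes of the other lists.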

How the data were processed

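RNA of R1 and HN mESCs came from 3 collection dates, and TruSeq libraries were sequenced as paired 50-base reads. Per the methods and the submitters' processing notes, the authors used bcl2fastq, STAR (mm10/GRCm38), Picard for duplicate removal, HTSeq for reads on exons and DESeq2 size factors. Tool versions and the gene annotation are not given in the sources used here. As deposited, each value is a normalized signal, namely a gene's count over the size factor of its library, and 100% of values corresponded to whole reads (tolerance 0.001). The recovered reads served for depth and for the count-based alternatives.

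Values were compared as log2(normalized count + 1) with limma 3.58.1 (R 4.3.3, variance trend, no block) over the 14276 genes with a mean of at least 5. A gene passed at a Benjamini-Hochberg adjusted p under 0.05. Fold changes on this scale understate the change of low genes. limma was the main test because the values are deposited as normalized counts, although the authors tested with DESeq2. p-values measure only the spread between these libraries. limma moves each gene's variance toward a trend over all tested genes, and more so with the block. The p-values thus do not rest on a gene's own spread alone. Same-numbered libraries share a collection date in the labels, and their deviations from the line means correlated at 0.25, 0.688 and 0.768 (R1 replicate 1 correlated at 0.339 with HN replicate 2). The pairing rests on the shared dates, and the fit with the replicate number as a block is given beside each result whose call it changes.

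Alternatives were the block, edgeR 4.0.16 and DESeq2 1.42.0 on recovered reads with and without the block, pseudocounts of 0.1 and 10, median centring, quantile normalization, no variance trend, no filter, a minimum mean of 50, and each library or date left out. The block with each date left out was added after seeing the data. The 9 genes, the lists and the tests were chosen with earlier results of these data known. Genes named beside the 9 were Htt, the 3 of each list with the largest changes in each direction among those that passed with the block, the 3 most alike to Cd68 and Laptm5, their neighbours within 50 kb and the highest gene of each marker list. Other genes named were chosen after their values were seen. The symbols Adgre1, Spi1 and Glmp were matched by RefSeq synonym. Exons, positions and shared 50-base transcript stretches come from GENCODE M21. The tests were also tried on simulated data with known changes.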

Additional observations from a re-analysis of the deposited data

How the results depend on the processing

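Counting error is largest for Laptm5 and Cd68, with 35 and 66 reads in their lowest libraries, and PCR reads without molecular identifiers need not be independent molecules. Of the 9 genes, 1 passed without the block, 4 with the replicate block by limma, edgeR or DESeq2, and 0 without the variance trend, where 0 of all tested genes passed. Over the fits that left out a library or a date without the block, 0 to 1 passed, and with the block 2 to 4 (without replicate 2, Cd68 and Laptm5). For Cd68 the log2 fold change lay between 1.37 and 1.73 when a library or a date was left out. Its call was lost in 5 of 24 alternatives, including no variance trend (1.60), and held in the other 19. Laptm5 passed only in the 6 fits with the block, and Ctsb and Ctsd in 5 of these 6. With a library or a date left out, signs turned for Laptm4a (-0.18 to 0.03, above 0 without R1 replicate 1 at 0.01 or HN replicate 3), Laptm4b (-0.32 to 0.04, above 0 without R1 replicate 1) and Lamp1 (-0.04 to 0.26, below 0 without R1 replicate 3).

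Of the 109 tested genes of the lysosome lists, 0 passed without the block, 15 with the replicate block by limma, 22 by edgeR with the replicate block, 1 by DESeq2 and 7 by DESeq2 with the replicate block. With the block and a date left out, 8 to 21 passed, and 0 in each fit that left out a library or a date without the block. The cause of these differences was not tested.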

Other observations

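The genes that start near Cd68 were measured as well. Of 7 tested genes whose start lies within 50 kb of that of Cd68, 0 passed without the block and 2 passed with it, both higher in HN. Of all tested genes, 5.46% passed as higher and 4.02% as lower with the block. The 2 genes were Senp3 (log2 fold change 0.44, limma adjusted p = 8.81e-04 with the block), which encodes a SUMO protease, and Sox15 (0.56, adjusted p = 0.00434 with the block), which encodes a transcription factor. Eif4a1, the nearest gene on the other side of the start of Cd68, stood at 2518 ± 138 normalized counts in R1 and at 2451 ± 95.5 in HN (SD, n = 3), and Mpdu1 differed by 0.31 without passing. All of these values are smaller than the 1.60 of Cd68. Near Laptm5, Matn1 was the only tested gene, and it did not pass (0.48).

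Pluripotency markers varied between the lines too. With the block 6 of the 10 were higher and 1 lower in HN, against 5.46% and 4.02% of all tested genes, while 0 passed without it. These genes are abundant, and a log2 fold change as small as 0.27 (Dppa5a) passed with the block. Tfcp2l1, the marker with the highest mean, stood at 3744, 3623 and 3091 normalized counts in R1 and at 6216, 5235 and 4162 in HN, with no overlap. Zfp42 was the marker that was lower (-0.79). Of the fibroblast markers, Thy1 (-1.54) and Pdgfrb (-1.39) were lower with the block. Gata6, with the highest mean of the endoderm markers, differed by 0.18, and 0 of the 8 tested endoderm markers passed with or without the block.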
